A study of Mus musculus with 25 samples.

Results

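The 9 genes described here are the transcription factor genes Stat2, Stat3, Stat4, Stat5a, Stat5b and Stat6 and the feedback genes Socs1, Socs3 and Cish. They were taken by symbol from 2 tables of 38087 genes each, and all 9 were found once in both. The first table holds leukocytes sorted from the tibialis anterior muscle of adult male C57BL/6J mice, 2-4 months old, after an injection of cardiotoxin, a venom toxin that destroys muscle fibres. Its columns are Ly6Ghigh Ly6Cint F4/80- neutrophils at day 1 (3 samples in the labels), and Ly6Clow F4/80high and Ly6Chigh F4/80low macrophages at day 4 (2 samples each) and at day 2 (3 samples each). All of these cells had first been selected magnetically for CD45. The second table holds bone marrow-derived macrophages (BMDM) from male mice of the same strain, aged 8-10 weeks, grown with M-CSF and replated without it. BMDM given 10 nM resolvin D2 (RvD2), a lipid mediator derived from docosahexaenoic acid, for 4 h (3 libraries) are set against untreated BMDM (3 libraries). The labels do not say how many mice went into a sample. All cells were wild type as far as the labels go.

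STAT proteins are latent transcription factors that Janus kinases (JAKs) phosphorylate when a cytokine binds its receptor, after which they dimerise, enter the nucleus and switch on target genes. Among those targets are the SOCS genes and Cish, whose SH2 domain proteins bind the receptor or the kinase and damp the same signal. In macrophages the pathway carries the responses to interferons, IL-4, IL-6, IL-10 and GM-CSF, and in neutrophils also that to G-CSF.

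Each muscle column holds 1 value a gene. It is read here, from the values and because no source used states the unit, as the authors' mean of log2 normalised counts over the samples of a group, so muscle differences have no error, no replicate check and no test. A gene is called where its normalised counts, with 10 added, differed at least 2-fold between groups and the higher group had 50 or more. Fold values and log2 ratios for muscle are on that scale, which understates the change of genes with low counts. In sorted bulk samples, fewer cells of a type and less RNA per cell cannot be told apart. Summed normalised counts were 26.0 M in neutrophils and 11.9 M to 12.8 M in the macrophage groups. All 8 macrophage markers were above 0 in every group, with sums of 74525 to 202885 in macrophages and 23898 in neutrophils. The 11 neutrophil markers summed to 422447 in neutrophils, against 2377 to 3058 in the macrophage groups, where Ly6g, Camp and Ngp were at 0. Monocyte markers summed to 4053 in Ly6Clow and 39148 in Ly6Chigh macrophages at day 4, against 3881 and 37531 at day 2, and the subsets were sorted on the product of one such gene. In neutrophils monocyte markers summed to 16538, with all 7 at 50 or more, and dendritic cell markers to 868. The part of such cells in the neutrophil values was not tested. B cell markers summed to 26.5 to 210 over the 5 groups, eosinophil and mast cell markers to at most 131, endothelial markers to 473 to 4738 and skeletal muscle markers to 253 to 1379.

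STAT dimers bind the palindrome TTCNNNGAA, STAT6 also the wider TTCNNNNGAA, and the interferon-activated complex that holds STAT2 binds elements built on GAAANNGAAA. Both strands of each gene's RefSeq promoter on GRCm38.p6 were searched for these letters, over 280 bases from 250 bases before the start to 30 bases after it. The promoters of Socs3, Cish, Socs1 and Stat2 are shown because these genes differed between the groups and their promoters hold such a match, which is a description and not evidence of binding. Capitals mark the matches. Socs3 lies at chr11:117969337-117969616 on the minus strand, with TTCTTAGAA from position -154 to -146 relative to the start. Cish lies at chr9:107296409-107296688 on the plus strand, with TTCCTGGAA and TTCTTGGAA from position 1 to 9 and from 12 to 20. Socs1 lies at chr16:10785507-10785786 on the minus strand, with overlapping matches to GAAANNGAAA from -83 to -74 and from -77 to -68. Stat2 lies at chr10:128270248-128270527 on the plus strand, with GAAANNGAAA on the other strand from -222 to -213 and TTCNNNNGAA from -210 to -201.
Socs3: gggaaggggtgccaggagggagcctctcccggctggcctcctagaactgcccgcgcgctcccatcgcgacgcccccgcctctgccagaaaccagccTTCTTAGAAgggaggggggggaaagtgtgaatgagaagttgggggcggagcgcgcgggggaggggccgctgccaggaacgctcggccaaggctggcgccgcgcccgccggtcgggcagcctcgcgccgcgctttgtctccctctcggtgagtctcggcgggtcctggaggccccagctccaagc
Cish: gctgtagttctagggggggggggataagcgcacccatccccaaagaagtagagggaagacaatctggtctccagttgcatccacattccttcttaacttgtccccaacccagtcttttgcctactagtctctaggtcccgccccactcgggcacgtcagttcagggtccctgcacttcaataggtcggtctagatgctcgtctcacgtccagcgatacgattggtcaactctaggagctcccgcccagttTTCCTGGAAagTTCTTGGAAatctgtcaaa
Socs1: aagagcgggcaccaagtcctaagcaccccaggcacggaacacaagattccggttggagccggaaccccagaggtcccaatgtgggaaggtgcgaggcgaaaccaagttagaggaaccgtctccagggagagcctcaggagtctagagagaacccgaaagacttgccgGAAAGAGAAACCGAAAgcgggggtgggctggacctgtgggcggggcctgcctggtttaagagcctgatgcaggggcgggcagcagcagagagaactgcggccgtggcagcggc
Stat2: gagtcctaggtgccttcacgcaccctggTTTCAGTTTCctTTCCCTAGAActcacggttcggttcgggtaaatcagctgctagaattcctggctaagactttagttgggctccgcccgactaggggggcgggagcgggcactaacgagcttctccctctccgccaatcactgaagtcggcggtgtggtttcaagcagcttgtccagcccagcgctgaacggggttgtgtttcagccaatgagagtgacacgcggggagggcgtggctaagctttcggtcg
Of 32851 RefSeq promoters cut to the same length, 7.83% held TTCNNNGAA, 6.50% held TTCNNNNGAA and 3.28% held GAAANNGAAA. A second listed start of Stat4 had 1 match to GAAANNGAAA. The windows of Stat3, Stat5a, Stat5b and Stat6 held none of these letters.

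Per kilobase of merged exon, Socs3 had the highest level of the 9 genes in neutrophils (6507 normalised counts per kb) and in Ly6Clow and Ly6Chigh macrophages at day 4 (758 and 1176). Stat6 came first in Ly6Clow macrophages at day 2, with 710 per kb against 486 for Socs3. In Ly6Chigh macrophages at day 2 these genes were close, at 898 per kb for Socs3 and 854 for Stat6. Stat4 was the lowest of the 9 in every macrophage group, at 4.62 to 37.7 per kb, and stood at 121 per kb in neutrophils. In neutrophils Cish (65.3 per kb) and Stat5a (67.4 per kb) were the lowest. Among the 4 macrophage groups the levels of single genes differed most for Stat4 (5.60-fold between the highest and the lowest group), Cish (4.76-fold) and Stat2 (4.67-fold). Socs1 and Socs3 spanned 2.43-fold and 2.41-fold, Stat3 1.70-fold and Stat5b 1.46-fold. Stat5a and Stat6 were the most even, at 1.31-fold and 1.26-fold.

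**Figure D1:**
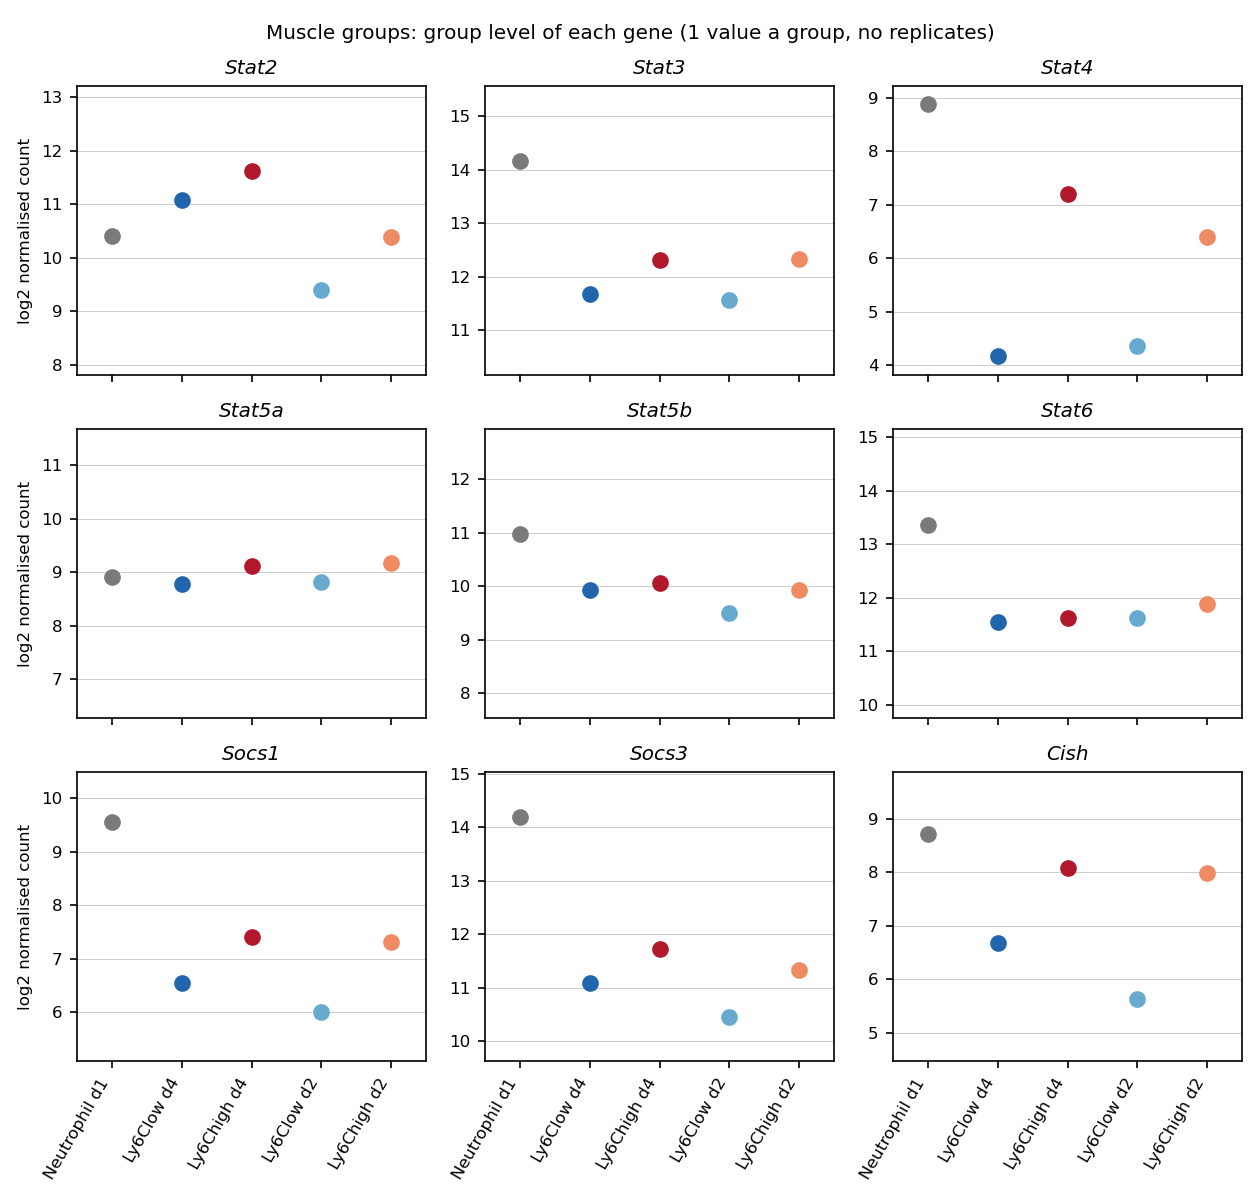
Level of each of the 9 genes in the 5 muscle groups, as log2 normalised counts (y axis, the same span in every panel). Each point is 1 group value without error. As deposited, neutrophils are highest for all genes but Stat2 and Stat5a, though scaling to equal totals puts Stat5b and Cish of neutrophils no higher than both Ly6Chigh groups, and Ly6Chigh macrophages are above Ly6Clow macrophages of the same day in every panel.

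The series title names transitions between macrophage subtypes, and the subsets were compared at each day and the days within each subset. At both days all 9 genes were lower in Ly6Clow than in Ly6Chigh macrophages, but few by 2-fold. At day 4 Stat4 and Cish were called lower, 2 of 9, while 4.22% of 11764 eligible genes were called lower, 2.98% higher and 7.21% in either direction. At day 2 Stat4, Socs1 and Cish were called lower, 3 of 9, while 5.46% of 11275 eligible genes were called lower, 5.90% higher and 11.4% in either direction. The median log2 ratio of the 9 genes was -0.63 at day 4 and -0.88 at day 2, against 0.01 and -0.00 over all eligible genes. Between days 4 and 2, Stat2 alone was called, and it was higher at day 4 in both subsets. In Ly6Clow macrophages this made 1 of the 8 eligible genes, Stat4 being under 50 at both days, where 8.08% of 11560 genes were called higher, 3.24% lower and 11.3% in either direction. In Ly6Chigh macrophages it made 1 of 9, where 9.67% of 11618 genes were called higher, 3.74% lower and 13.4% in either direction. The median log2 ratio of the eligible genes of the 9 between days was 0.46 in Ly6Clow and 0.11 in Ly6Chigh macrophages, against -0.01 in both over all eligible genes. The comparisons share their 4 group columns, so they are not independent of each other.

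**Figure D2:**
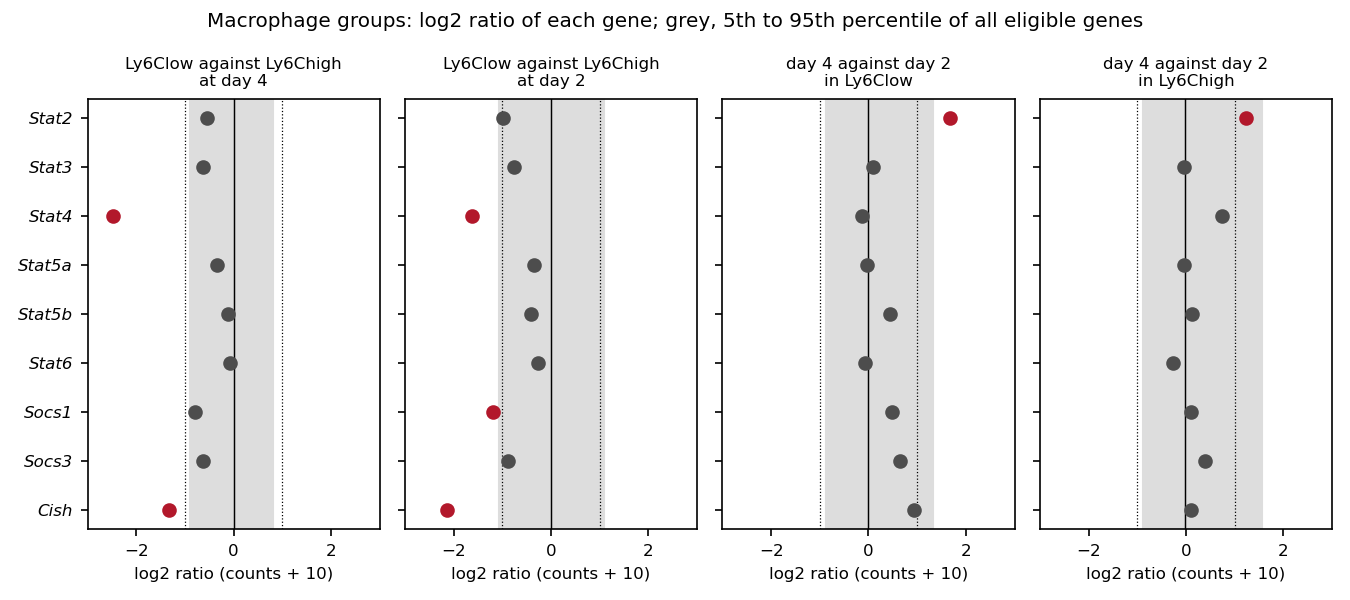
Log2 ratio of each gene (x axis, on normalised counts plus 10) in the 4 macrophage comparisons, with the first-named group over the second. The grey band spans the 5th to the 95th percentile of all eligible genes, the solid line is their median, dotted lines mark 2-fold and red points are past it. Stat4 and Cish lie left of the band in both subset comparisons, Socs1 at day 2, and Stat2 lies right of it in Ly6Clow cells between days, while in Ly6Chigh cells Stat2, at 1.23, stays within it.

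Stat2 encodes a factor of the complex that answers type I interferon. It had 2162 normalised counts in Ly6Clow and 3179 in Ly6Chigh macrophages at day 4, against 673 in Ly6Clow and 1346 in Ly6Chigh macrophages at day 2. Both day 4 groups thus lay above both day 2 groups. Stat2 was 3.18-fold higher at day 4 in Ly6Clow macrophages (log2 ratio 1.67) and 2.35-fold higher in Ly6Chigh macrophages (1.23). In Ly6Clow against Ly6Chigh macrophages it was 1.47-fold lower at day 4 (log2 ratio -0.55) and 1.99-fold lower at day 2 (-0.99), just short of the limit, and it passed the limit when groups were scaled to equal totals.

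Genes that interferons are known to induce were, like Stat2, higher at day 4. Of 18 such genes, 16 were called higher at day 4 in Ly6Clow macrophages and 9 in Ly6Chigh macrophages, with none called lower (0). The median log2 ratios were 1.95 and 1.00. Over all eligible genes 8.08% were called higher in Ly6Clow and 9.67% in Ly6Chigh macrophages. Ciita, the master regulator of MHC class II genes, was 46.7-fold higher at day 4 in Ly6Clow macrophages, at 1091 normalised counts against 13.6. In Ly6Chigh macrophages it was 6.18-fold higher, at 1826 against 287. Cxcl9, which encodes a chemokine for activated T cells, was 21.3-fold and 22.2-fold higher at day 4 in Ly6Clow and Ly6Chigh macrophages. Cxcl10, its relative, was 14.3-fold higher in Ly6Clow macrophages, and Ifit2, an inhibitor of viral translation, was 11.2-fold higher in Ly6Clow and 4.96-fold higher in Ly6Chigh macrophages. Gbp2, a guanylate-binding protein of cell-autonomous defence, was 5.02-fold higher in Ly6Chigh macrophages. Irf9, which encodes another factor of that complex, stayed under the limit at 1.60-fold and 1.18-fold.

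Between subsets the same list differed mainly at day 2. Of all eligible genes 4.22% were called lower in Ly6Clow macrophages at day 4 and 5.46% at day 2. The share on the list at day 4 was close to that. At day 4, 1 of 18 genes, Isg20, an exonuclease of interferon-treated cells, was called lower in Ly6Clow macrophages (2.41-fold), and the median log2 ratio was -0.56. At day 2, 13 of 17 eligible genes were called lower, with a median of -1.34. Ciita was 12.6-fold lower, Isg20 5.04-fold, Cxcl10 4.83-fold and Mx2, which encodes an antiviral GTPase, 3.76-fold. Of 5 interferon receptor genes, Ifngr1, a chain of the interferon gamma receptor, was called, at 2.28-fold higher at day 4 in Ly6Clow macrophages. Usp18, the enzyme that removes ISG15 and blocks the type I interferon receptor, was 2.28-fold higher there too. Ptprc, the gene of the CD45 phosphatase, was 2.75-fold and 2.06-fold higher at day 4 in Ly6Clow and Ly6Chigh macrophages and 2.13-fold lower in Ly6Clow than in Ly6Chigh macrophages at day 2.

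**Figure D3:**
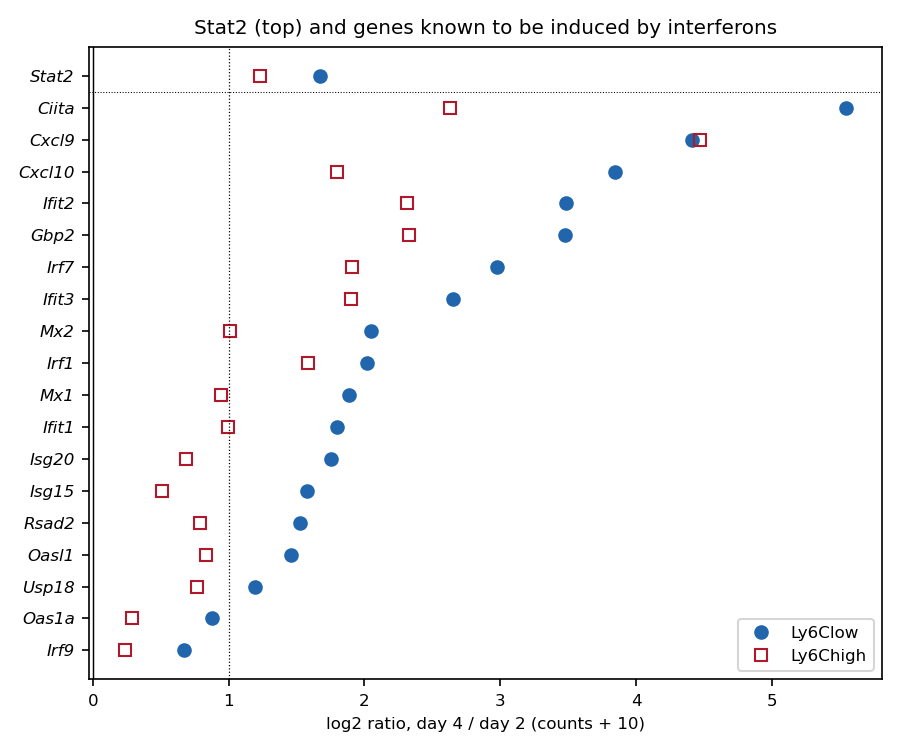
Log2 ratio of day 4 over day 2 (x axis, on normalised counts plus 10) for Stat2, at the top, and 18 genes known to be induced by interferons, in Ly6Clow (filled circles) and Ly6Chigh macrophages (open squares). Each mark is a ratio of 2 group values without error, and the dotted line marks 2-fold. All marks lie right of 0, with 16 of the 18 genes past 2-fold in Ly6Clow and 9 in Ly6Chigh macrophages.

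Of the feedback genes, Cish, whose product limits signals through STAT5, had 103 normalised counts in Ly6Clow and 272 in Ly6Chigh macrophages at day 4, against 49.4 and 252 at day 2. Both Ly6Clow groups lay under both Ly6Chigh groups. Cish was 2.50-fold lower in Ly6Clow macrophages at day 4 (log2 ratio -1.32) and 4.42-fold lower at day 2 (-2.14). Between days it was 1.90-fold higher at day 4 in Ly6Clow macrophages (log2 ratio 0.93) and 1.08-fold higher in Ly6Chigh macrophages (0.11). The first of these passed the limit, at 1.04, when 1 rather than 10 was added to the counts.

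Socs1, whose product inhibits JAKs directly and restrains the interferon response, had 94.0 normalised counts in Ly6Clow and 170 in Ly6Chigh macrophages at day 4, against 64.2 and 159 at day 2. Here too both Ly6Clow groups lay under both Ly6Chigh groups. The gene was 1.74-fold lower in Ly6Clow macrophages at day 4 (log2 ratio -0.80) and 2.27-fold lower at day 2 (-1.18). Between days it differed by 1.40-fold in Ly6Clow and 1.07-fold in Ly6Chigh macrophages, higher at day 4 in both.

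Socs3, whose product acts on receptors that share gp130 and on the G-CSF receptor, had 2193 normalised counts in Ly6Clow and 3399 in Ly6Chigh macrophages at day 4, against 1406 and 2597 at day 2. Each day the Ly6Clow group was lower, and in each subset day 4 was higher, all under 2-fold. The log2 ratio of Ly6Clow over Ly6Chigh macrophages was -0.63 at day 4 and -0.88 at day 2. Of the remaining SOCS genes with enough counts, Socs4, Socs5, Socs6 and Socs7, none was called between macrophage groups (0 of 4). In those comparisons 7.21% to 13.4% of all eligible genes were called.

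Stat4, which in lymphocytes carries the IL-12 signal, had the lowest counts. It had 17.9 normalised counts in Ly6Clow and 146 in Ly6Chigh macrophages at day 4, against 20.4 and 83.6 at day 2. It was 5.60-fold lower in Ly6Clow macrophages at day 4 (log2 ratio -2.48) and 3.08-fold lower at day 2 (-1.62), and 1.67-fold higher at day 4 within Ly6Chigh macrophages (0.74). Markers of T and NK cells were, like Stat4, lower in Ly6Clow than in Ly6Chigh macrophages at both days. Their 12 genes summed to 45.2 normalised counts in Ly6Clow and 1138 in Ly6Chigh macrophages at day 4, against 12.8 and 44.3 at day 2. In Ly6Chigh macrophages at day 4, 6 of the 12 reached 50, while Cd3e, Cd3g, Cd8a and Cd8b1 were at 0 in Ly6Clow macrophages of that day, and the part of these cells in the Stat4 value was not tested. At day 2 none of the 12 reached 50 in either subset (0), where Stat4 itself stood at 20.4 and 83.6. The part of these cells in the day 2 values of Stat4 was not tested either. Dendritic cell markers summed to 304 and 2839 in Ly6Clow and Ly6Chigh macrophages at day 4, and fibroblast markers to 2264 and 28350, against 83.8 to 312 for both lists at day 2. The part of such cells in the day 4 values of Stat4 was not tested, nor in those of Stat2, Cish, Socs1, Socs3 and the remaining STAT genes. It was also not tested for the day 4 values of Ciita and the other interferon targets, or of the receptor, ligand and target genes described next.

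Of 10 receptor genes of the common gamma chain, IL-4, IL-13 and IL-12 family with enough counts, 3 were called lower in Ly6Clow macrophages at day 4, and none higher (0). The shares over all eligible genes were 4.22% lower and 2.98% higher. Il2rb, a chain of the IL-2 receptor that is itself on the T and NK cell list, had 12.2 normalised counts in Ly6Clow and 319 in Ly6Chigh macrophages at day 4, against 4.01 and 11.4 at day 2. Il2ra, another chain of it, was 5.10-fold and Il12rb1, a chain of the IL-12 receptor, 2.11-fold lower in Ly6Clow than in Ly6Chigh macrophages at day 4, the last call being lost with 30 added to counts. Within Ly6Chigh macrophages Il2rb, Il12rb1 and Il2ra were 15.4-fold, 6.44-fold and 5.90-fold higher at day 4. Il12rb2, the other IL-12 receptor chain, had 102 normalised counts in Ly6Clow and 56.5 in Ly6Chigh macrophages at day 4, against 18.0 and 16.4 at day 2. That made it 3.98-fold higher at day 4 in Ly6Clow and 2.52-fold higher in Ly6Chigh macrophages, the second call being lost with 30 added. Il13ra1, a chain of the IL-4 and IL-13 receptor, was 2.96-fold lower in Ly6Clow than in Ly6Chigh macrophages at day 2 and 2.79-fold higher at day 4 than at day 2 in Ly6Clow macrophages. Il15ra, the IL-15 binding chain, was 2.09-fold higher at day 4 in Ly6Clow macrophages, at 64.6 against 25.6, a call lost with 30 added.

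Stat3, the factor of the IL-6, IL-10 and G-CSF receptors, had 3265 normalised counts in Ly6Clow and 5061 in Ly6Chigh macrophages at day 4, against 3041 and 5175 at day 2. The log2 ratios of Ly6Clow over Ly6Chigh macrophages were -0.63 and -0.77, and those of day 4 over day 2 were 0.10 in Ly6Clow and -0.03 in Ly6Chigh macrophages, the last turning to 0.05 at equal totals. None of these 4 ratios reached 2-fold. Among all eligible genes 5.46% were called lower in Ly6Clow macrophages at day 2 and 4.22% at day 4. Of 15 genes known as STAT3 targets, 5 were called lower in Ly6Clow macrophages at day 2 and none (0) higher. Among them Il10, an anti-inflammatory cytokine, was 2.99-fold lower, Cebpd, an acute-phase transcription factor, 2.59-fold, Il1rn, the IL-1 receptor antagonist, 2.50-fold and Nfil3, a transcription factor, 2.45-fold. At day 4, 1 of 14 was called lower, Myc, a growth regulator, at 2.05-fold, a call lost with 30 added to counts (log2 ratio -0.97). Between days the list had no common direction, with 2 called higher and 1 lower of 15 in Ly6Clow macrophages and 1 lower of 14 in Ly6Chigh macrophages. The all-gene shares were 8.08% higher and 3.24% lower in Ly6Clow and 9.67% higher and 3.74% lower in Ly6Chigh macrophages. In Ly6Clow macrophages Il10 was 2.09-fold and Cebpd 2.02-fold higher at day 4, both lost with 30 added, and Saa3, an acute-phase protein gene, was 3.19-fold lower, at 15.2 against 70.4. In Ly6Chigh macrophages Hif1a, the hypoxia factor, was 2.36-fold lower at day 4.

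Of the ligands that signal through STAT3, Osm (oncostatin M) was 3.40-fold and Lif 2.82-fold lower in Ly6Clow than in Ly6Chigh macrophages at day 2. Osm was also 2.10-fold lower at day 4 than at day 2 in Ly6Chigh macrophages, at 3060 against 6432 normalised counts, but at equal totals the call was lost, with a log2 ratio of -0.991. Il6 went the other way from low levels, at 3.52-fold higher at day 4 in Ly6Chigh macrophages, with 53.8 normalised counts against 8.14 at day 2. At day 4 Il6 was 4.15-fold lower in Ly6Clow than in Ly6Chigh macrophages, at 5.36 against 53.8. Il15, the ligand of a common gamma chain receptor, was 2.66-fold higher at day 4 in Ly6Clow macrophages. The receptor gene Il10ra was 3.40-fold higher at day 4 in Ly6Clow and 2.01-fold higher in Ly6Chigh macrophages, and Lifr was 2.31-fold lower in Ly6Clow than in Ly6Chigh macrophages at day 4 and 3.10-fold lower at day 2. At day 2 Il10ra was also 2.02-fold lower in Ly6Clow than in Ly6Chigh macrophages. Within Ly6Clow macrophages Lifr was 2.53-fold and Il6ra, the IL-6 binding chain, 2.15-fold higher at day 4.

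Stat5a and Stat5b, close relatives that answer GM-CSF and IL-3, and Stat6, the factor of IL-4 and IL-13, were the flat genes of the macrophages. Stat5a had 437 to 576 normalised counts over the 4 groups, Stat5b 725 to 1063 and Stat6 2974 to 3759. The largest of their ratios was 1.35-fold, that of Stat5b between days in Ly6Clow macrophages. Their known targets were less even. Of 12 eligible STAT6 targets in Ly6Chigh macrophages, 6 were called higher and 4 lower at day 4, and of 10 in Ly6Clow macrophages 4 were higher and 2 lower. For all eligible genes the shares were 9.67% and 3.74% in Ly6Chigh and 8.08% and 3.24% in Ly6Clow macrophages. Arg1, the arginase of alternatively activated macrophages, was 17-fold lower at day 4 in Ly6Clow macrophages, at 299 against 5246 normalised counts. In Ly6Chigh macrophages it was 18.4-fold lower, at 125 against 2471. Retnla, a secreted protein of the same cell state, was 4.64-fold higher at day 4 in Ly6Clow and 5.75-fold higher in Ly6Chigh macrophages, at low levels of at most 174. Chi3l3, a chitinase-like protein gene of the same state, was 4.90-fold lower at day 4 in Ly6Clow and 3.69-fold lower in Ly6Chigh macrophages. Irf4, a transcription factor gene, was 3.14-fold higher at day 4 in Ly6Clow macrophages, and Ccl22, a chemokine gene, 4.64-fold higher in Ly6Chigh macrophages, at 60.9 against 5.29. Between subsets the STAT6 targets also went both ways, with 2 called higher and 4 lower of 12 in Ly6Clow macrophages at day 4 and 1 higher and 3 lower of 9 at day 2. Here the all-gene shares were 2.98% higher and 4.22% lower at day 4 and 5.90% higher and 5.46% lower at day 2. Arg1 was 2.29-fold higher in Ly6Clow than in Ly6Chigh macrophages at day 4 and 2.12-fold higher at day 2. Chi3l3, which is also on the monocyte marker list, was 4.10-fold lower at day 4 and 3.09-fold lower at day 2. All 7 genes of that marker list were called lower in Ly6Clow macrophages at both days. Irf4 was 2.34-fold lower at day 4 and 2.22-fold lower at day 2, the second lost with 30 added. Cdh1, the E-cadherin gene, was 7.47-fold lower at day 4, at 1.63 in Ly6Clow against 76.8 in Ly6Chigh macrophages, and Ccl24, a chemokine gene, 2.73-fold lower at day 2.

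Where 4.22% of all eligible genes were called lower in Ly6Clow macrophages at day 4, 5 of 10 STAT5 targets were. At day 2 it was 2 of 9 STAT5 targets, against 5.46% of all eligible genes, and none was higher at either day (0). At day 4 the largest were Ccnd2, a cyclin gene, at 5.68-fold, with 44.1 normalised counts in Ly6Clow against 298 in Ly6Chigh macrophages, and Il2ra at 5.10-fold, with 3.65 against 59.6. Ccnd1, another cyclin gene, was 2.26-fold lower. The T and NK cell, dendritic cell and fibroblast marker sums given with Stat4 moved with these genes at day 4, at 45.2, 304 and 2264 in Ly6Clow against 1138, 2839 and 28350 in Ly6Chigh macrophages, and the part of such cells in these values was not tested. Id1, an inhibitor of differentiation factors, was 2.23-fold lower in Ly6Clow macrophages at day 4, lost with 30 added to counts, and 4.61-fold lower at day 2. Within Ly6Chigh macrophages 2 of 10 STAT5 targets were called higher at day 4 and 2 lower. They were Il2ra and Ccnd2, at 5.90-fold and 4.60-fold higher, and Osm and Bcl2l1, a survival factor gene, at 2.10-fold and 2.02-fold lower, both lost at equal totals. In Ly6Clow macrophages none of 6 was called between days (0). Called in either direction between days were 13.4% of all eligible genes in Ly6Chigh and 11.3% in Ly6Clow macrophages.

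Jak2, the kinase of the GM-CSF and interferon gamma receptors, was 2.01-fold lower in Ly6Clow macrophages at day 4 and 2.00-fold lower at day 2. Both calls sat at the limit and were lost with 30 added to counts (log2 ratios -0.988 and -0.977) and at a median ratio of 1 (-0.998 and -0.990). The other JAK genes stayed within 1.37-fold between subsets. The GM-CSF receptor genes Csf2ra and Csf2rb were 2.12-fold and 2.62-fold lower in Ly6Clow macrophages at day 2. Csf2rb has a near-identical copy, Csf2rb2, and reads of Stat5a and Stat5b can also be hard to assign, so these values are uncertain.

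Neutrophils at day 1 were then set against each macrophage group, a comparison in which cell type and day differ together. Socs3, Stat3, Stat6, Socs1 and Stat4 were at least 2-fold higher in neutrophils than in all 4 macrophage groups, and none of the 9 was lower (0). These 5 of 9 stood beside 25.2% of 11545 eligible genes called higher, 20.9% called lower and 46.1% called in either direction. The median over the 9 of the ratio nearest 0 was 1.47, against 0.06 over all genes. Socs3 had 18812 normalised counts in neutrophils, against 1406 to 3399 in the macrophage groups, which is 5.52-fold to 13.3-fold. Stat3 had 18292 in neutrophils, against 3041 to 5175, which is 3.53-fold to 6.00-fold. Stat6 had 10466 in neutrophils, against 2974 to 3759, which is 2.78-fold to 3.51-fold. For these 3 genes the neutrophil value stood clear of every macrophage value.

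The same held for 2 genes of low level. Socs1 had 757 normalised counts in neutrophils, against 64.2 to 170 in the macrophage groups, which is 4.25-fold to 10.3-fold. Stat4 had 468 in neutrophils, against 17.9 to 146, which is 3.06-fold to 17.1-fold, with a T and NK cell marker sum of 54.4 in neutrophils. Stat5b and Cish were also highest in neutrophils, though not by 2-fold against each group, and at equal totals neither was above the Ly6Chigh groups. Stat5b had 2011 normalised counts in neutrophils, against 725 to 1063, and was 1.88-fold to 2.75-fold higher. Cish had 419 in neutrophils, against 49.4 to 272, and was 1.52-fold to 7.22-fold higher. Stat5a, at 481 in neutrophils, lay within the macrophage range of 437 to 576. Stat2, at 1361 in neutrophils, was 2.33-fold lower than Ly6Chigh and 1.58-fold lower than Ly6Clow macrophages of day 4, 2.01-fold higher than Ly6Clow macrophages of day 2 and within 1.01-fold of Ly6Chigh macrophages of day 2, while at equal totals it was 1.02-fold to 5.07-fold lower than the 4 macrophage groups.

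The neutrophil column summed to more than any macrophage column, and the scaling bears on these counts. As deposited, the median log2 ratio over all eligible genes was 0.18 to 0.21. With every column set to the same median ratio the same 5 genes were called, where 21.3% of all eligible genes were called higher. With every column set to the same total that median was -0.97 to -0.87, and 10.1% were called higher, 1134 against 4560 lower, in place of 2912 against 2414 as deposited. Then Socs3 alone remained called, at 2.52-fold to 6.47-fold. Stat3 was 1.65-fold to 2.92-fold higher, Stat4 1.44-fold to 9.05-fold, Socs1 1.98-fold to 5.18-fold and Stat6 1.34-fold to 1.72-fold. Under that scaling Stat5a was 1.82-fold to 2.48-fold lower in neutrophils.

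**Figure D4:**
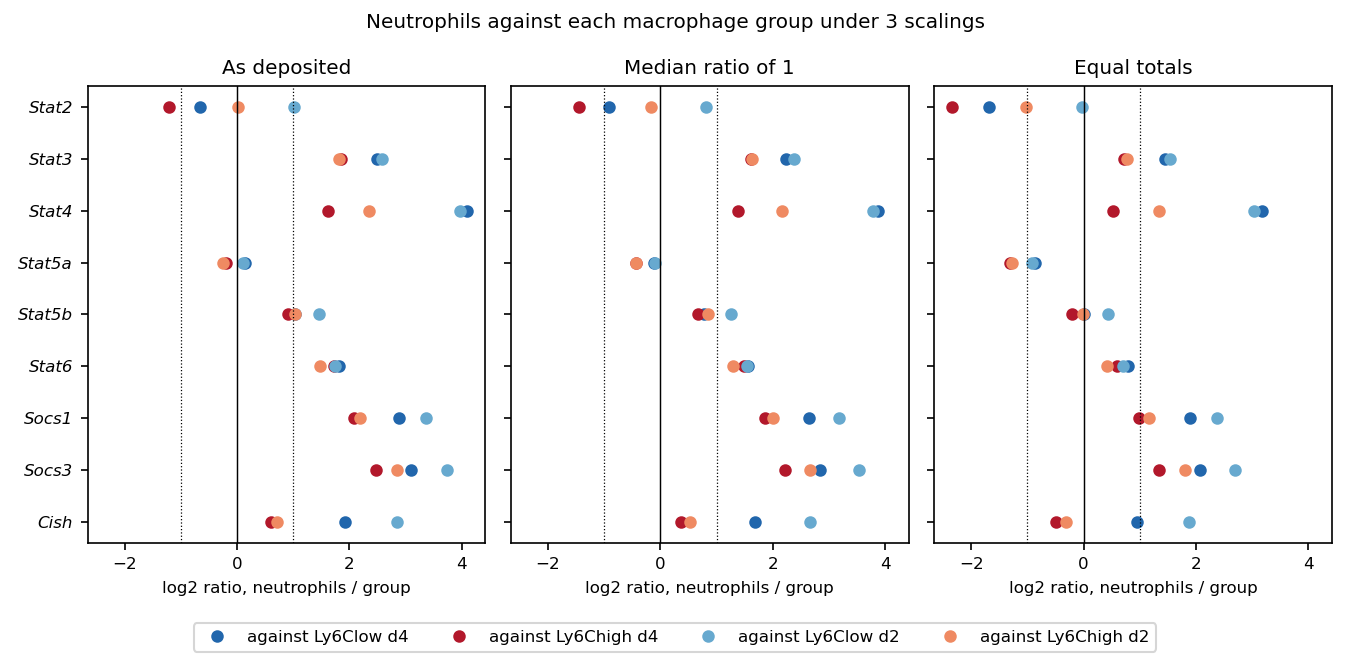
Log2 ratio of neutrophils over each macrophage group (x axis, on normalised counts plus 10) for the 9 genes, with the columns as deposited, at a median ratio of 1 and at equal totals. Each point is a ratio of 2 group values without error, and dotted lines mark 2-fold. Socs3 keeps all 4 points right of 2-fold in the 3 panels, while Stat3, Stat4, Stat6 and Socs1 do so in the first 2 only.

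The receptors, kinases and ligands of the pathway were unevenly spread between these cells, and for them the fold given is the smallest over the 4 macrophage groups. Csf3r, the G-CSF receptor gene, had 79818 normalised counts in neutrophils, against 1317 to 2704 in the macrophage groups, and was at least 29.4-fold higher. It is also on the neutrophil marker list. Csf2rb2 and Csf2rb, the near-identical pair, were at least 6.86-fold and 5.20-fold higher in neutrophils, and Il3ra, a chain of the IL-3 receptor, at least 6.08-fold lower. Il6st, which encodes gp130, had 43.4 in neutrophils, against 1000 to 1434, and was at least 18.9-fold lower, while Il6ra was at least 2.73-fold higher and Lifr at least 3.40-fold lower. Il10rb, a chain of the IL-10 receptor, was at least 3.76-fold higher. Il7r and Il21r, receptors that share the common gamma chain, were at least 8.99-fold and 6.20-fold lower, and Il13ra1 was at least 4.47-fold higher. These calls held at equal totals, with the exception of Il6ra and Il10rb.

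Among kinases Jak2 had 13498 normalised counts in neutrophils, against 567 to 1351, and was at least 9.93-fold higher, a call that held at equal totals. Jak1 was at least 4.00-fold higher as deposited, and Jak3 at least 2.04-fold higher, but at equal totals Jak1 was no longer called and the log2 ratio of Jak3 nearest 0 turned to -0.01. Tyk2 was not called as deposited and was called lower at equal totals. Where 25.2% of all eligible genes were called higher in neutrophils, 4 of 6 ligand genes with enough counts were. They were Il23a, a subunit of IL-23, with 1908 normalised counts in neutrophils, against 0 to 6.07, Csf3 (G-CSF) with 656 against 8.26 to 25.7, Lif with 1076 against 66.4 to 205 and Osm with 26669 against 1885 to 6432. The call of Osm was lost at equal totals.

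Of the 15 STAT3 targets, 10 were called higher and 1 lower in neutrophils, with a median log2 ratio of 1.90. At equal totals 7 were higher and 2 lower. Over all eligible genes 25.2% were called higher and 20.9% lower as deposited, and 10.1% higher at equal totals. Il1rn was at least 25.8-fold higher, Tnfaip3, an inhibitor of NF-kB, 11.7-fold and Mcl1, a survival factor of neutrophils, 5.51-fold, and Myc was at least 7.07-fold lower. All 4 were called at equal totals too. Of 15 eligible interferon-induced genes, 4 were higher and 1 lower as deposited, and 0 higher and 2 lower at equal totals. As deposited, the share called higher was close to that over all eligible genes. Mx1, an antiviral GTPase, was at least 12.7-fold lower in neutrophils under the deposited scaling, and Isg20, Ifit1 and Rsad2, 3 interferon-induced genes, at least 4.12-fold, 3.01-fold and 2.46-fold higher.

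Of 10 eligible STAT6 targets 2 were higher and 5 lower, where 25.2% of all eligible genes were called higher and 20.9% lower. Pdcd1lg2, which encodes a ligand of the PD-1 receptor, had 1885 normalised counts in neutrophils, against 2.7 to 19.8 in the macrophage groups, and was at least 63.6-fold higher. Tgm2, a transglutaminase, was at least 6.84-fold higher. Mrc1, the macrophage mannose receptor, was at least 40.0-fold lower and Clec10a, a lectin receptor gene, at least 10.7-fold lower. All 4 were called at equal totals too. Of the remaining SOCS genes, Socs4 was at least 3.71-fold higher and Socs5 and Socs6 at least 2.20-fold and 3.97-fold lower, and the call of Socs4 was lost at equal totals. Of 13 other inhibitor genes 4 were higher, a share close to that over all eligible genes. They were the phosphatase genes Dusp1 (at least 9.96-fold), Ptpn2 (3.84-fold) and Ptprc (2.53-fold), which encodes the sorting marker CD45, and the ubiquitin ligase gene Cbl (2.05-fold). At equal totals, where 10.1% of all eligible genes were called higher, Dusp1 alone was, with Cbl turning to a log2 ratio of -0.012. Of 9 eligible STAT5 targets 6 were higher and 1 lower, against 3 and 2 of 8 at equal totals, with Id1 at least 9.66-fold, Bcl2l1 5.20-fold and Pim1 4.88-fold higher and Ccnd1 at least 12.3-fold lower, all 4 called at equal totals too. Each of these ratios shares the neutrophil column.

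For each of the 9 genes the most similar profiles were sought among 12752 genes, by the root mean square distance between centred log2 profiles over the 5 groups. Stat2 was closest to Nlrp1c (distance 0.09) and to Epsti1 (0.14), a gene induced by interferon. Stat3 was closest to H3f3b (0.04), a histone gene with near-identical copies, and Ptp4a1 (0.05), a phosphatase gene. Stat5b was closest to Ptpn1 (0.02), which encodes a phosphatase that acts on JAKs and STATs, and to Dstyk (0.03), a kinase gene. Stat5a was closest to Slc25a12 (0.03), a mitochondrial carrier gene, and Cnot3 (0.03), a gene of the CCR4-NOT complex, and Stat6 to Mark2 (0.03), a kinase gene, and Gm13733 (0.03). Socs1 was closest to Pkd1l3 (0.07) and Crem (0.08), a cAMP-responsive factor, and Socs3 to Srsf5 (0.11), a splicing factor gene, and Lmbr1l (0.11). The nearest for Stat4 were Tnfaip6 (0.24), a hyaluronan-binding protein gene, and Card14 (0.28), and for Cish BC006779 (0.22) and Dos (0.24). With 5 points a profile, a small distance describes these columns and nothing further.

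The last comparison set BMDM given RvD2 against untreated BMDM. The sample titles name no vehicle for the controls, and a part of vehicle or handling in the differences was not tested. None of the 9 genes passed the test (0 of 9, limma with Benjamini-Hochberg adjustment over 15239 genes), while 1.86% of all genes tested did, 0.794% (121) higher and 1.06% (162) lower. At an unadjusted p under 0.05 the count was also 0 of 9, against 2370 of 15239 genes. The intervals set limits of different width. For Stat3, Stat5b and Stat6 the 95% interval of the log2 fold change ran from -0.20 to 0.08, from -0.09 to 0.17 and from -0.08 to 0.23, and for Stat5a from -0.26 to 0.28. For Stat2 it ran from -0.26 to 0.56, for Socs3 from -0.21 to 0.40 and for Socs1 from -0.80 to 0.70.

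Stat4 had the largest fold change. It had 16.3, 21.7 and 36.0 normalised counts in RvD2 libraries, against 13.4, 5.31 and 19.7 in untreated libraries. The groups overlapped. The log2 fold change was 1.06 ± 0.49 (SE), with a 95% interval from -0.06 to 2.18 and an adjusted p of 0.35 by limma, and leaving out 1 library at a time gave 0.52 to 1.47. Cish had 41.4, 45.1 and 38.4 normalised counts in RvD2 libraries, against 40.9, 28.0 and 26.2 in untreated libraries. Here 1 untreated library lay within the RvD2 range. Its log2 fold change was 0.42 ± 0.21 (SE), with an interval from -0.05 to 0.89 and an adjusted p of 0.379 by limma.

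The group means of the remaining genes differed by less than the larger SD between libraries. Stat2 averaged 521 ± 85.3 normalised counts with RvD2 and 477 ± 129 untreated (SD, n = 3 each), and Stat3 1682 ± 76.3 and 1749 ± 97.7. Stat5a averaged 301 ± 33.3 with RvD2 and 299.9 ± 41.6 untreated, Stat5b 760.4 ± 7.09 and 740.02 ± 29.3, and Stat6 3412 ± 205 and 3234 ± 203. Socs3 averaged 242 ± 49.6 with RvD2 and 223 ± 10.1 untreated, and Socs1 19.8 ± 7.75 and 19.6 ± 3.42. No gene of the 9 had groups that stood apart. The share of all genes tested with such groups was not counted, so this is a description only. Per kilobase, Stat6 was the highest of the 9 in untreated BMDM (735 normalised counts per kb), followed by Stat3 (184), Stat5b (134), Stat2 (80.5) and Socs3 (77.2). Stat5a stood at 42.0, Socs1 at 6.74, Cish at 4.94 and Stat4 at 3.31.

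**Figure D5:**
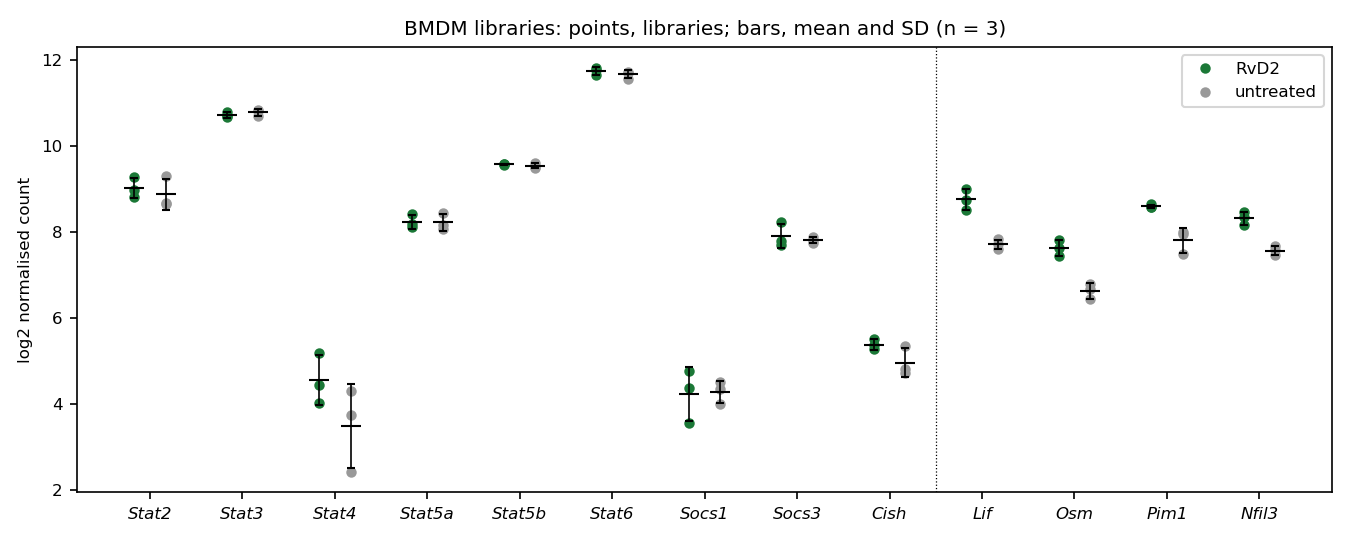
Log2 normalised counts (y axis) of the 9 genes, and right of the dotted line of 4 pathway genes that rose, in BMDM libraries with RvD2 (green) and untreated (grey). Points are libraries and bars the mean and SD (n = 3). The groups overlap for each of the 9 genes and stand apart for Lif, Osm, Pim1 and Nfil3. The last 4 were picked from genes that passed the test on these same libraries, so their separation is no further support.

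Upstream and downstream of the 9 genes a few pathway genes rose with RvD2. Of 8 ligand genes tested, Lif and Osm rose and none fell (0). Lif had 365, 428 and 511 normalised counts in RvD2 libraries, against 209, 195 and 226 in untreated libraries, a log2 fold change of 1.04 ± 0.12 (SE; adjusted p = 0.00733, limma). Osm had 173, 196 and 226 in RvD2 libraries, against 86.1, 102 and 110 in untreated libraries, a log2 fold change of 0.99 ± 0.13 (adjusted p = 0.0106, limma). In both, every RvD2 library was above every untreated one, which adds no support to the test on these same libraries. Of 15 STAT3 targets, Pim1, a survival kinase gene, rose by 0.79 ± 0.13 on the log2 scale (SE; adjusted p = 0.0249, limma), Nfil3 by 0.75 ± 0.10 (adjusted p = 0.0102) and Hif1a by 0.33 ± 0.06 (adjusted p = 0.0231), and none fell (0). Of 7 STAT6 targets, Klf4, a macrophage transcription factor, rose by 0.51 ± 0.08 (adjusted p = 0.0173, limma) and Tgm2 by 0.39 ± 0.06 (adjusted p = 0.0173). Of 5 interferon receptor genes, Ifngr2, a chain of the interferon gamma receptor, rose by 0.44 ± 0.08 (adjusted p = 0.0432, limma). Of 10 STAT5 targets, Osm and Pim1 rose. Of 16 interferon-induced genes, of the 4 JAK genes and of the genes on the remaining lists none passed (0 of each).

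These calls rested on all 6 libraries in different degrees, and without the mean-variance trend in limma none of the 8 passed (0; adjusted p = 0.0591 to 0.14). Without the filter on low counts Hif1a, Ifngr2, Pim1 and Tgm2 were lost (adjusted p = 0.0555 to 0.104, limma). Lif passed whichever library was left out, at adjusted p of 0.00647 to 0.0338 by limma. Osm was lost without RvD2 replicate 3 (adjusted p = 0.0565) and Nfil3 without RvD2 replicate 2 or 3 (0.0507 and 0.0544, limma). Pim1 was lost without any of the RvD2 libraries or without untreated replicate 2 (0.0539 to 0.107). Klf4 was lost without RvD2 replicate 2 or 3 or any untreated library (0.0581 to 0.0841), and so were Hif1a (0.0512 to 0.113) and Ifngr2 (0.0565 to 0.167). Tgm2 was lost without RvD2 replicate 2 or 3 or untreated replicate 1 or 2 (0.056 to 0.09). Macrophage markers summed to 64232 to 71829 in RvD2 and 58327 to 71476 in untreated BMDM, T and NK cell markers to 7.73 to 19.2 and 10.9 to 13.7, and fibroblast markers, which were high in both, to 56191 to 83274 and 62239 to 72052. Neutrophil markers were less even, at 4988 to 9839 in RvD2 and 4865 to 15750 in untreated BMDM. Monocyte markers summed to 2317 to 3160 and 2622 to 3987.

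The genes lie on 5 chromosomes of GRCm38/mm10. Stat5b (chr11:100780731-100850724), Stat5a (chr11:100859351-100885169) and Stat3 (chr11:100885098-100939540) are neighbours, and the ends of Stat5a and Stat3 overlap by 72 bases on opposite strands. Stat6 (chr10:127642986-127660957) overlaps Nab2 by 40 bases on opposite strands, and Stat2 lies at chr10:128270559-128292849. Cish (chr9:107296026-107302784) shares bases with the pseudogene Gm17040 and the antisense gene Gm17041, both on the other strand. Stat4 (chr1:51987148-52107189) shares bases with Gm3940 on the other strand and Gm28177 on the same strand. Socs3 lies at chr11:117966079-117970047 and Socs1 at chr16:10782240-10785536. The kit as described did not mark strand, so reads from such overlaps cannot be told apart.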

How the data were processed

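RNA was sequenced from poly-A selected TruSeq libraries, per the labels' protocols. The mouse build mm10 and the tools DESeq and TopHat2 (2.0.7) appear, with no role given, per the submitters' processing notes. The values deposited by the authors were read from the values themselves as log2 normalised counts, with counts under 1 set to 0, since neither the labels nor the headers state the unit or the floor, and all counts and folds rest on that reading. BMDM have 1 column a library, and muscle has 1 column a group, taken from its values to be a mean of log2 values. Of the 25 samples, those of blood monocytes and of day 1 Ly6Chigh cells were not analysed here. No column belonged to another series (0), and 2 muscle cells without a number were treated as missing.

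The 9 genes, the 12 pathway lists, 10 marker lists, tests and rules were chosen with earlier results of these data known, so patterns already known from them are no independent support. BMDM were compared with limma 3.58.1 (R 4.3.3) with a mean-variance trend on genes with a mean of at least 10 normalised counts, two-sided, Benjamini-Hochberg adjusted over all genes tested, at a threshold of 0.05. The script was tested on simulated data. The labels do not say whether libraries came from separate cultures. The p-values thus reflect differences among these libraries only, which may be technical. From the step between low values the depth was estimated at 9.05 M to 14.3 M reads a BMDM library. By that step 37.5% to 50.2% of values under 30 lay within 0.02 of a whole number, so whole reads were not recovered. Muscle depth is unknown. Named were all 9 genes, the called pathway genes with the largest ratios, up to 4 a list and comparison, and the 2 nearest profiles a gene. Other genes named, such as Irf9 and Tyk2, were chosen after their values were seen. One related gene is not reported here. Of 38087 identifiers 36308 matched GENCODE M21. Sequences are RefSeq's on GRCm38.p6. Alternatives were other pseudocounts, minimum levels, scalings, filters, a replicate block and leaving out single libraries. Python 3.11.15, numpy 2.4.6, pandas 2.3.3 and matplotlib 3.10.9 were used.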

Additional observations from a re-analysis of the deposited data

How the results depend on the processing

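The count of the 9 genes called with RvD2 was 0 in every alternative run, and the lowest adjusted p of any was 0.111 (Stat4, limma with the replicate number as a block). The count over all genes, 283, was 137 without a filter on low counts and 49 without the mean-variance trend. Leaving out 1 library at a time gave 79 to 290, with 290 without RvD2 replicate 1 and 79 to 140 without any of the others. Whether the replicate numbers pair the libraries was not settled. Deviations of same-numbered libraries correlated at 0.290, 0.024 and 0.052 over genes, and those of differently numbered libraries at -0.261 to 0.185. With the number as a block 1066 genes were called. Of 108 refits of the 9 genes' fold changes 102 kept their direction. The others were refits without 1 library, in which Stat5a ranged from -0.079 to 0.12, Socs1 from -0.32 to 0.29 and Socs3 from -0.065 to 0.20. These genes were not called in any fit.

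In muscle, 261 of 270 ratios of the 9 genes kept their status, but most of these were not called in the main run and stayed so. Among the others, 7 called ratios lost their call and 2 uncalled ratios gained one. Calls of pathway genes that were lost with 30 added, at equal totals or at a median ratio of 1 include those of Jak2 between subsets, Osm and Bcl2l1 between days in Ly6Chigh macrophages, Socs5, Cbl and Jak3 in neutrophils and others named beside their values, and calls whose higher group had under 200 normalised counts were lost with that minimum. With 1 added to counts, 2 genes were called between days in Ly6Clow macrophages. With a minimum level of 200, 1 gene was called between subsets at day 4 and 1 at day 2, since Stat4, and at day 2 Socs1, then fell below the minimum. At equal totals 1 gene was called in neutrophils, and the log2 ratios of Cbl and Jak3 turned to -0.012 and -0.0052. The true scaling between neutrophils and macrophages cannot be read from these columns, and the muscle values have no error, so differences near 2-fold are the least firm. Socs1, Cish and Stat4 in BMDM rest on under 50 normalised counts a library.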
